A study of Rattus norvegicus with 40 samples.

Results

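The hippocampal slices described here came from aged unimpaired (AU) rats, old animals that solved a Morris water maze about as well as young ones, and were given intermittent theta burst stimulation (iTBS) or sham. iTBS is a form of repetitive transcranial magnetic stimulation (rTMS) in which short high-frequency bursts are repeated at theta rhythm, with pauses between trains. The members were chosen from the sample titles: 4 AU iTBS arrays and 4 AU sham arrays, 1 of each per rat, which are 8 of the 36 primary arrays and of 40 arrays in all. A repeat hybridization of AU sham 4 was used only as a technical check. The rats were male Long-Evans rats without genetic modification. The labels give them an age of 25 to 26 months and a sampling time of 1 h, while the treatment protocol gives 24 to 25 months and a rest of 2 h. Iced hippocampi were chopped into slabs 1 mm thick, the slabs of a rat were shared out among the treatments, and each array holds the pooled RNA of the slabs of 1 rat in 1 dish. Stimulated slabs lay 1 cm below the coil, sham slabs lay 20 cm away, and the output was 15% of the machine's maximum. Both groups thus share the dissection, the incubation in artificial cerebrospinal fluid and the age. The dish and the treatment cannot be told apart. The other primary arrays enter the fit that gives the standard errors. They hold further slabs of the AU rats, given rTMS at 1 Hz. They also hold sham, 1 Hz and iTBS slabs of aged impaired rats, as old as the AU rats, and of young rats of 5 to 6 months.

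Neuronal activity that opens NMDA receptors and calcium channels is known to switch on immediate early genes through the transcription factors CREB and SRF, which bind the cyclic AMP response element and the CArG box. Their products, among them the transcription factors Fos, Egr1 and Npas4, peak and decay within hours, and theta burst patterns are a standard way to induce long-term potentiation in hippocampal slices. Cutting a slice also sets off an injury response of its own in microglia, astrocytes and vessels, in which NF-kB drives cytokines and chemokines, and sham slices carry it too.

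Levels are given as the log2 intensity of a probe minus the log2 of the 75th percentile of its array, so that a level of 0 is the signal of a probe at that percentile. A difference is the iTBS level minus the sham level on this log2 scale, where 1 is a 2-fold difference. In bulk tissue fewer cells of a type and less RNA per cell cannot be told apart. All 13 pan-neuronal, 15 astrocyte, 25 myelin and 13 homeostatic microglia markers on the array were measurable. So were 9 of 11 dentate granule cell and 11 of 12 CA1 and CA3 markers. The mean level of the pan-neuronal markers ran from 0.49 to 0.81 over the sham arrays and from 0.20 to 1.02 over the iTBS arrays. Being measurable does not set hippocampus apart from its neighbors. Of 6 thalamus and habenula markers 5 were measurable, of 14 meningeal 13, of 7 ependymal 6, of 18 endothelial and mural 18 and of 19 choroid plexus markers 10. Over the sham arrays the mean level ran from -1.14 to -0.67 for thalamus and habenula markers and from -2.19 to -1.26 for dentate granule cell markers. Between 73.67% and 89.5% of the spots of the 4 sham arrays lay well above background, and between 73.85% and 87.4% of those of the 4 iTBS arrays.

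Several of the 8 arrays held patches of the surface in which nearly all spots were dim. A spot was counted as lying in a patch when at least 25% of the bright spots among its 48 neighbors were more than 1 log2 unit below their median over the 36 arrays, a rule that does not look at the spot itself and was added after the data were seen. By this rule 2393 spots of AU sham 3, 1047 of AU sham 4, 555 of AU iTBS 1, 1298 of AU iTBS 3 and 748 of AU iTBS 4 lay in patches, and 0 on AU sham 1, on both arrays of rat 2 and on the repeat of AU sham 4. The results below are given with these spots, as deposited, and without them where that moves a value.

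**Figure D1:**
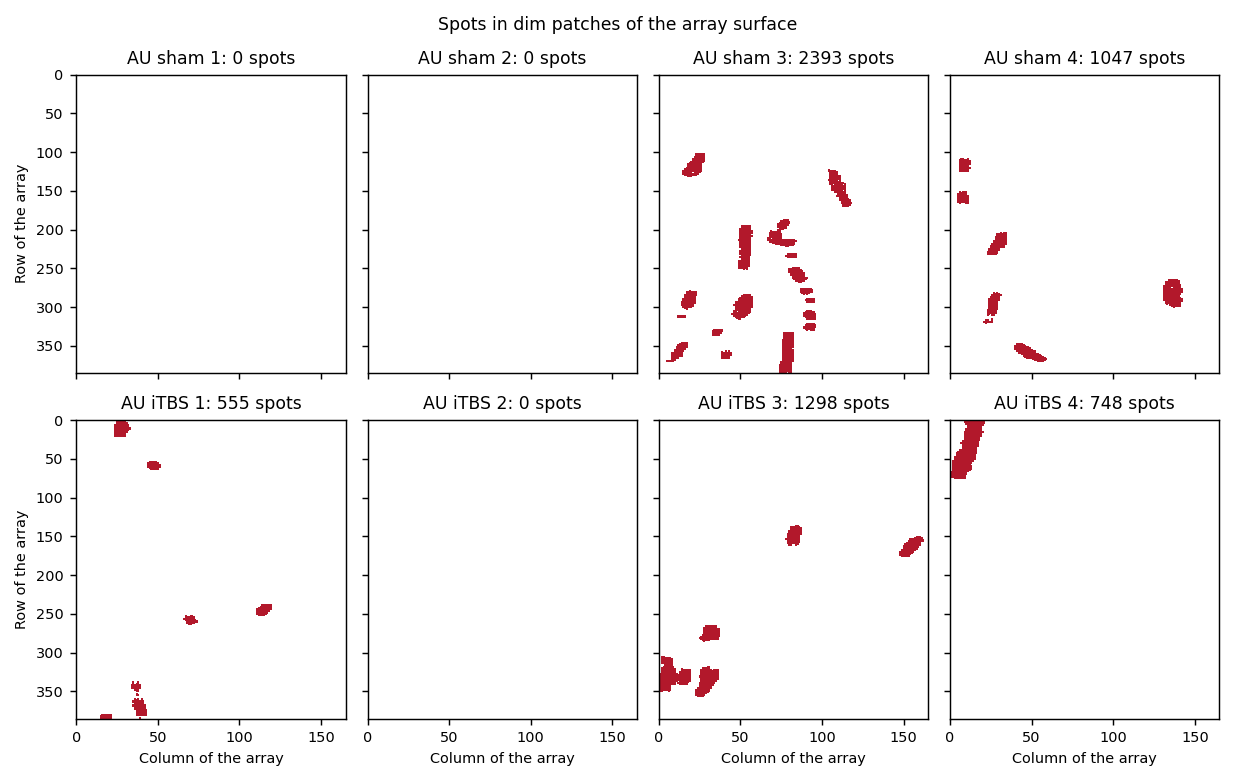
Positions of the spots that lay in dim patches on the 4 AU sham arrays (upper row) and the 4 AU iTBS arrays (lower row), by row and column of the array. AU sham 3 held 2393 such spots and both arrays of rat 2 held 0.

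Across all genes the question was which transcripts differed between iTBS and sham slices of the same rat. Of 30651 probes tested, 0 passed an adjusted p of 0.05 in limma (0%), and the adjusted p-values were all 1. An unadjusted p under 0.05 was found for 1319 probes (4.30%), with 835 higher in iTBS (2.72%) and the rest lower (1.58%). Without the spots in dim patches the count was 746 probes (2.43%). The criteria of the study's methods combine an ANOVA, a z-test, a limit on the false discovery rate, a z-ratio and a positive mean z-score. They kept 3 probes as computed here. The z-test and z-ratio alone, without the other 3 criteria, kept 329 higher and 233 lower probes of 45115. The 3 belong to Vrk3, a nuclear kinase (z-ratio 1.77), Gpr4, a receptor that senses protons (z-ratio -2.36), and the defensin gene Defb43 (z-ratio -2.15).

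The changes of the 4 rats had little in common. The correlation of the changes over all tested probes between any pair of rats ran from -0.040 to 0.135, and from -0.094 to 0.212 without the spots in patches. These are descriptions over probes that share their arrays. The spread of a rat's changes over probes, as an SD, was 0.465, 0.414, 0.838 and 0.566 in rats 1 to 4, against 0.497 between AU sham 4 and its own repeat. Without the spots in patches it was 0.396, 0.414, 0.430 and 0.357, against 0.339 for the repeat. The repeat is 1 pair of hybridizations, and its arrays lay on different slides. Among the rats this held for rat 4 alone. The spread of the repeat may thus hold a slide difference that the other rats lack, and is not a like baseline for them. By gene, 750 of 12559 genes (5.97%) were higher in iTBS in all 4 rats and 671 (5.34%) were lower in all 4. All iTBS arrays lay below all sham arrays in 30 genes (0.239%) and above them in 41 (0.326%). Of 12648 tested genes, 5830 had estimates below 0 and 6818 above 0, and the counts of signs in the lists below stand beside this share.

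The immediate early genes, the readout closest to neuronal firing, were not higher after iTBS. All 27 on the list were measurable and 0 passed the adjusted threshold. Of the 27 estimates 25 were below 0, where 5830 of all 12648 tested genes were. The median was -0.15 beside 0.02 over all tested genes. By rat the median change was -0.20, -0.23, -0.04 and -0.06, with 18, 22, 17 and 17 of the 27 genes below sham, where 57.1%, 53.2%, 41.5% and 47.7% of all genes were above it. In 19 of the 27 the estimate was within 0.2 of 0, where the median standard error was 0.19. Without rat 2 the median was -0.08. Without the spots in patches 23 of the 27 estimates were below 0, with Dusp1, another phosphatase of MAP kinases, at 0.12 in place of -0.29 and Nptx2, a secreted pentraxin, at 0.02 in place of -0.19, both named after their values were seen. None was higher at an unadjusted p under 0.05, where 2.74% of all genes were, and 2 were lower, Npas4 and Dusp5, where 1.59% of all genes were. Npas4, which is also among the 25 estimates below 0, entered the test only through the 4 sham arrays. Nothing is therefore read from the count of 2.

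Fos, a subunit of the AP-1 transcription factor, stood at -0.24, -0.11, -0.24 and -0.01 in the sham arrays of rats 1 to 4 and at -0.23, -0.34, -0.09 and -0.56 in the iTBS arrays. The groups overlapped and the estimate was -0.15 (standard error 0.19). Arc, whose protein removes AMPA receptors from synapses, was at 0.49, 0.48, -0.35 and 0.37 in sham and 0.59, 0.28, -0.39 and 0.55 in iTBS. Rat 3 was low in both groups, so that Arc followed the rat and not the treatment, with an estimate of 0.01 (standard error 0.17). Egr1, a zinc finger factor induced by synaptic activity, was at 1.33, 1.34, 1.32 and 1.86 in sham and 1.85, 1.22, 1.19 and 1.48 in iTBS, an estimate of -0.02 (standard error 0.19). The sign of both estimates turned under other settings.

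Npas4, a neuron-specific factor that answers calcium entry, was at -6.94, -6.01, -6.59 and -6.87 in sham and -7.39, -8.15, -7.78 and -7.18 in iTBS. It was dim, well above background on 6 of the 8 arrays, and every iTBS value lay below every sham value, as in 0.239% of all genes, with an estimate of -1.02 (standard error 0.41, unadjusted p = 0.0215). Npas4 entered the test only through the 4 sham arrays, being above background on 2 of the iTBS arrays, and a filter passed in this way favors genes that are higher in sham, so nothing is read from its direction. With a normexp background correction, which compresses dim probes, the Npas4 estimate was -0.19. Dusp5, a nuclear phosphatase that switches off ERK and is itself induced by ERK, was at 0.14, 0.42, 0.27 and -0.34 in sham and -0.53, -0.63, 0.08 and -0.37 in iTBS. It was lower in each rat, with changes of -0.67, -1.05, -0.19 and -0.03, although the groups overlapped, and the estimate was -0.48 (standard error 0.16, unadjusted p = 0.00612). Without rat 2 the Dusp5 estimate was -0.29 (unadjusted p = 0.1). Gadd45b, a stress-induced gene tied to DNA demethylation (-0.37, standard error 0.19), and Sik1, a kinase that restrains CREB (-0.33, standard error 0.17), did not pass the unadjusted threshold. Dusp6, the cytosolic counterpart of Dusp5 (0.08, standard error 0.18), had the largest positive estimate with all spots.

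**Figure D2:**
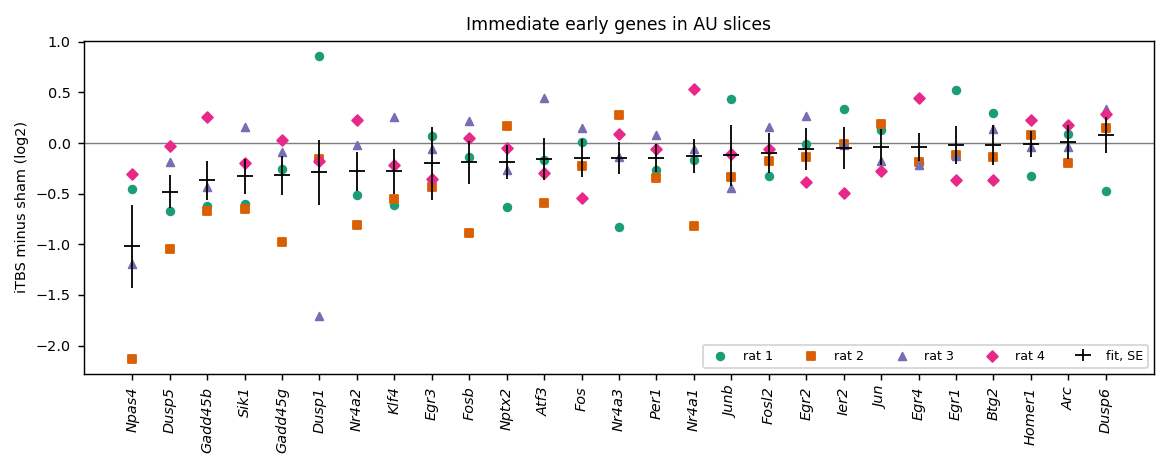
Change of the 27 immediate early genes (iTBS minus sham, log2) in each of the 4 AU rats (colored points) with the fitted change and its standard error (black). The estimates run from -1.02 for Npas4 to 0.08 for Dusp6, and 25 of the 27 lie below 0 with all spots.

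Letters that match the sites of CREB and SRF were sought in the promoters of this family, a search that says nothing of binding in these slices. RefSeq promoters on the GRCr8 build, from 250 bases before to 50 after the start, were at hand for 21 of the 27 genes. The core of the cyclic AMP response element, TGACG on either strand, was found in 13 of the 21 (61.9%), where 22.0% of all 27457 promoters and 30.0% of those of tested genes held it. The CArG box was found in 3 of the 21 (14.3%), Egr1, Egr2 and Dusp5, where 1.64% of all promoters held it. The promoter of Dusp5 (chr1:262543524-262543823, + strand) is shown because it joins the response element core and the CArG box. Dusp5 was also the only gene of the list with a bright probe that was lower in each rat. The capitals mark 2 neighboring CArG boxes, the nearer of which begins 72 bases before the start, and the response element core 55 bases before it, written here on the opposite strand.
Dusp5: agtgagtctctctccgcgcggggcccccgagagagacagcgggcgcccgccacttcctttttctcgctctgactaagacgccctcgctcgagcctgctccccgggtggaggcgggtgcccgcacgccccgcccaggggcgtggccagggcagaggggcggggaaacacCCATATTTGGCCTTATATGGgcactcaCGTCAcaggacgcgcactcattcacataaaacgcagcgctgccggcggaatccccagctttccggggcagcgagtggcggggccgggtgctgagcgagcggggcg

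Cytokines and chemokines were mostly lower in iTBS than in sham slices in rats 1, 2 and 4 and not in rat 3. Of 33 genes listed 29 were measurable and 0 passed the adjusted threshold. Of these 29, 23 had estimates below 0, where 5830 of 12648 tested genes did, and the median was -0.23. By rat the median was -0.32, -0.70, 0.10 and -0.13, and without rat 2 it was -0.12. Above sham were 10, 6, 18 and 9 of the 29 in rats 1 to 4, where 57.1%, 53.2%, 41.5% and 47.7% of all genes were. At an unadjusted p under 0.05, 3 of the 29 were lower and 0 higher, where 1.59% and 2.74% of all genes were. These were Cxcl11, a ligand of the T-cell receptor Cxcr3 that interferon induces, Cxcl1, which draws neutrophils, and Il6, the cytokine of the acute phase.

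Cxcl11 stood at -3.08, -3.30, -2.93 and -4.40 in sham and at -4.34, -4.10, -3.27 and -5.66 in iTBS. It was lower in each rat although the groups overlapped, and the Cxcl11 estimate was -0.91 (standard error 0.26, unadjusted p = 0.00195). Cxcl1 was at -0.70, -1.06, -0.77 and -1.66 in sham and -1.77, -2.31, -0.71 and -1.70 in iTBS, so that the estimate of -0.57 (standard error 0.20, unadjusted p = 0.00994) came from rats 1 and 2, with changes of -1.07 and -1.25, and the Cxcl1 estimate was -0.35 without rat 2. Il6 was at -5.76, -5.48, -5.27 and -7.41 in sham and -7.19, -7.32, -5.12 and -7.27 in iTBS, again lower in rats 1 and 2 alone, with an estimate of -0.74 (standard error 0.35, unadjusted p = 0.0475). Under a normexp correction the Il6 estimate was -0.24, and without rat 2 it was -0.38. Il1b, the cytokine that inflammasomes release, went the same way in rats 1 and 2 (by -1.49 and -1.55) and the other way in rat 4 (0.85). In rat 3 Il1b was lower as well, at 0.87 in sham and 0.42 in iTBS. Its estimate was -0.66 (standard error 0.61). Ccl2, which recruits monocytes, had changes of -1.35, -1.43, 0.42 and 0.05 in rats 1 to 4.

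NF-kB sites, searched on both strands, were found in 6 of the 22 cytokine promoters at hand (27.3%), those of Il6, Tgfb1, Cxcl1, Cxcl2, Cxcl10 and Cxcl11, where 4.16% of all promoters and 5.04% of those of tested genes held one. AP-1 sites were found in 5 of the 22 (22.7%), those of Il1a, Il16, Cxcl10, Cxcl11 and Cxcl14. Of all promoters 4.53% held an AP-1 site, and 3.63% of those of tested genes. The AP-1 match of Cxcl11 is not marked below. The promoters of Cxcl11 (chr14:15973478-15973777, + strand) and Cxcl1 (chr14:17479272-17479571, - strand), from RefSeq on GRCr8, are shown because these chemokines had the smallest p of the list. The capitals mark the NF-kB match, which begins 74 bases before the start in Cxcl11, and 2 overlapping matches that begin 84 and 83 bases before it in Cxcl1. The search gives letters and says nothing of binding in these slices.
Cxcl11: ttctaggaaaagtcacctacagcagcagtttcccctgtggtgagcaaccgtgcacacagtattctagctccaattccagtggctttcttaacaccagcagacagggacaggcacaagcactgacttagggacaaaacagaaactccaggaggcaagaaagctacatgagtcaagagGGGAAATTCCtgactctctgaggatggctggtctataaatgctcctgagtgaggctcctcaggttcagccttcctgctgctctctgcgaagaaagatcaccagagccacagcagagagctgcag
Cxcl1: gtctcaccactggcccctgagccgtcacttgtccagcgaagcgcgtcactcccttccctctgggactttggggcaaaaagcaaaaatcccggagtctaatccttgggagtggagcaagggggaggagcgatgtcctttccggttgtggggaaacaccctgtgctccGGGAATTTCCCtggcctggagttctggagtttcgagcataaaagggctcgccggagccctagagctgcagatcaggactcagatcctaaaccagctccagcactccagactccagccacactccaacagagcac

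Interferon response genes were mostly lower in rats 1, 2 and 4 and higher in rat 3. Of the 19 genes 17 were measurable, 0 passed the adjusted threshold, 14 estimates were below 0 and the median was -0.20, with -0.17, -0.39, 0.17 and -0.23 by rat. Ifit3, an antiviral effector (-0.42, standard error 0.22), and the chemokine Cxcl10 (-0.51, standard error 0.39) were lower in 3 rats and higher in rat 3. Over the alternative settings, which include each rat left out, Ifit3 ran from -0.75 to -0.12 and Cxcl10 from -0.86 to -0.33. Of the 20 genes of slice injury and hypoxia, 15 had estimates below 0 (median -0.17) and Timp1, an inhibitor of matrix metalloproteinases, was lower at an unadjusted p under 0.05. Timp1 was at -1.78, -1.43, -1.75 and -2.79 in sham and -2.29, -2.81, -1.94 and -2.70 in iTBS, an estimate of -0.50 (standard error 0.16, unadjusted p = 0.00517) that was -0.20 without rat 2. Ptgs2, the inducible prostaglandin synthase, gave the largest negative value of the list (-1.33, standard error 0.70), and it came from 1 spot: AU iTBS 3 was at -9.59, where 48% of the bright neighbors were dim, and the other iTBS arrays were at -3.61, -3.73 and -3.44. Without that spot the Ptgs2 estimate was 0.22.

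Markers of blood were also mostly lower in rats 1, 2 and 4 and higher in rat 3. All 7 measurable blood markers had estimates below 0 (median -0.27), by rat -0.35, -0.60, 0.24 and -0.49, and their mean level ran from -1.62 to -0.67 in sham and from -2.0 to -1.27 in iTBS. S100a8, a neutrophil protein (-0.45, standard error 0.19, unadjusted p = 0.0293), and Hba-a1, a globin of red cells (-0.34, standard error 0.18), were lower in each rat. Their part in the cytokine and interferon values was not tested. The border macrophage markers Cd163, the hemoglobin scavenger receptor (-0.57, standard error 0.28), and Lyve1, a hyaluronan receptor (-0.47, standard error 0.27), were lower in each rat too, among 4 measurable markers with a median of -0.32. Homeostatic microglia markers had a median of -0.05 over 13 genes, and the difference between these lists was not tested.

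The heat shock genes held 2 of 13 that were lower at an unadjusted p under 0.05, where 1.59% of all genes were. Hspa1a, the stress-inducible Hsp70 chaperone, was at -0.12, 0.41, -0.37 and -1.16 in sham and -1.01, -0.31, -0.42 and -1.28 in iTBS, an estimate of -0.44 (standard error 0.20, unadjusted p = 0.0405). Its co-chaperone Bag3 was at -0.81, -0.41, -0.46 and -0.70 in sham and -0.89, -0.90, -0.88 and -0.80 in iTBS, an estimate of -0.27 (standard error 0.10, unadjusted p = 0.0143). For Bag3 the groups overlapped only in AU sham 1. The list as a whole had a median of -0.03, and the constitutive chaperone Hsp90ab1 was at -0.27 (standard error 0.14).

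The 12 genes that were lower in all 4 AU rats with the smallest p were then followed into the other rats of the series, which have sham arrays of their own. In aged impaired (AI) rats, which were as old but learned the maze poorly, 10 of the 12 had estimates below 0, with a median of -0.54, and 7 were lower at an unadjusted p under 0.05, where 1.47% of all genes were. In young rats of 5 to 6 months 7 of the 12 were below 0, with a median of -0.07, and 2 were lower at an unadjusted p under 0.05, where 1.40% of all genes were. Of the 12 genes that were higher in all 4 AU rats with the smallest p, 5 were above 0 in AI rats and 4 in young rats. Of all genes 46.1% were below 0 in AI rats and 27% in young rats. Of the 12 higher genes, 0 were higher at an unadjusted p under 0.05 in either, where 0.870% and 5.06% of all genes were. The fit gives a gene the same standard error in AU, AI and young rats. Choosing genes by a small AU p thus favors a small p in the other rats, so the shares of all genes are not a like baseline. Over all genes the AU and AI changes did not run together (r = -0.041 across genes, which are not independent). None of the 24 genes passed the adjusted threshold in AI or young rats. Of the lower genes Ptges, Cenpw and Ldlrad1 entered the test only through the AU sham arrays, and of the higher genes Mtf1 only through the AU iTBS arrays. A filter passed in this way favors the direction that was found, so nothing is read from the AU direction of these genes. Ptges is among the 10 and the 7 counted in AI rats.

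The 7 genes were Gpr4, Cd93, Cxcl11, Cd274, Sbno2, Ptges and Dusp5, and each was lower in all 4 AI rats. Cd93, a C-type lectin receptor of endothelium and myeloid cells, was at -1.19, -0.82, -1.17 and -1.42 in AU sham and -1.94, -1.79, -1.53 and -1.69 in AU iTBS. The groups did not overlap, which held for 30 of 12559 genes in this direction (0.239%), and the estimate for Cd93 was -0.59 (standard error 0.15, unadjusted p = 0.000621). In AI rats Cd93 had changes of -0.55, -0.64, -0.48 and -0.55, and in young rats its estimate was 0.02 (standard error 0.15). Gpr4, whose proton sensing activates endothelium, was at -0.49, -0.45, -0.90 and -1.47 in AU sham and -1.51, -2.22, -1.17 and -1.68 in AU iTBS, an estimate of -0.82 (standard error 0.20, unadjusted p = 0.000567). Without rat 2 the Gpr4 estimate was -0.50. The AI changes of Gpr4 were -0.78, -0.75, -0.78 and -0.67.

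Cd274, which encodes the checkpoint ligand PD-L1 that interferon induces, was at -4.91, -5.26, -4.97 and -5.54 in AU sham and -5.65, -5.85, -5.32 and -6.15 in AU iTBS, an estimate of -0.57 (standard error 0.16, unadjusted p = 0.00236). It was dim, and the Cd274 estimate was -0.25 with a normexp correction. Its AI changes were -0.93, -0.85, -0.32 and -0.81, and the young estimate was -0.39. Sbno2, a corepressor that interleukin-10 and interleukin-6 induce through Stat3, was at 0.61, 0.58, 0.10 and -0.41 in AU sham and -0.06, -0.72, -0.14 and -0.43 in AU iTBS. The Sbno2 estimates were -0.56 in AU, -0.65 in AI and -0.56 in young rats (standard error 0.17 in each), and the AU value was -0.31 without rat 2. Cxcl11 had AI changes of -1.21, -1.55, -1.17 and -0.53 and a young estimate of 0.09 (standard error 0.26). Dusp5 had AI changes of -1.02, -0.18, -0.38 and -0.50 and a young estimate of -0.11 (standard error 0.16).

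Ptges, the inducible prostaglandin E synthase that works with Ptgs2, was at -4.73, -4.94, -5.11 and -6.32 in AU sham and -6.0, -5.77, -5.27 and -7.97 in AU iTBS. On AU iTBS 4 its spot lay where 73.3% of the bright neighbors were dim, and the Ptges estimate was -0.98 (standard error 0.24) with the spot and -0.69 (unadjusted p = 0.00618) without it. Its AI estimate was -0.81 (standard error 0.24). Timp1, Hspa1a and Il6 of the lists above had AI estimates of -0.61, -1.03 and -1.06, each lower in all 4 AI rats. Of the other list members lower in AU at an unadjusted p under 0.05, Cxcl1 (-0.35) and Bag3 (-0.21) were lower in all 4 AI rats, S100a8 (-0.32) in 3, Npas4 (-0.20) in 2 and Aldoc (0.16) in 0. The other 5 of the 12 were Batf, an AP-1 factor of lymphocytes, Cenpw, a centromere protein, Mybl2, a cell cycle factor, Errfi1, a brake on the EGF receptor, and Ldlrad1. For 6 of the 12, Ptges, Batf, Cenpw, Cd274, Errfi1 and Ldlrad1, the only spot lay in a dim patch on 1 iTBS array, and without it the AU estimate went from -1.36 to -0.91 for Batf, from -1.49 to -1.06 for Cenpw, from -0.57 to -0.59 for Cd274, from -0.76 to -0.31 for Errfi1 (unadjusted p = 0.0556) and from -1.45 to -1.34 for Ldlrad1. Ptges, Cenpw and Ldlrad1 entered the test only through the 4 sham arrays. The AI estimates of Batf, Cenpw, Mybl2, Errfi1 and Ldlrad1 were -0.47, 0.08, -0.12, -0.17 and 0.24. Among AI arrays, AI iTBS 4 held 996 spots in dim patches, and leaving them out did not move the AI estimates of the 12. Both arrays of AI rats 3 and 4 lay on 1 slide, and those of AI rats 1 and 2 on different slides.

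**Figure D3:**
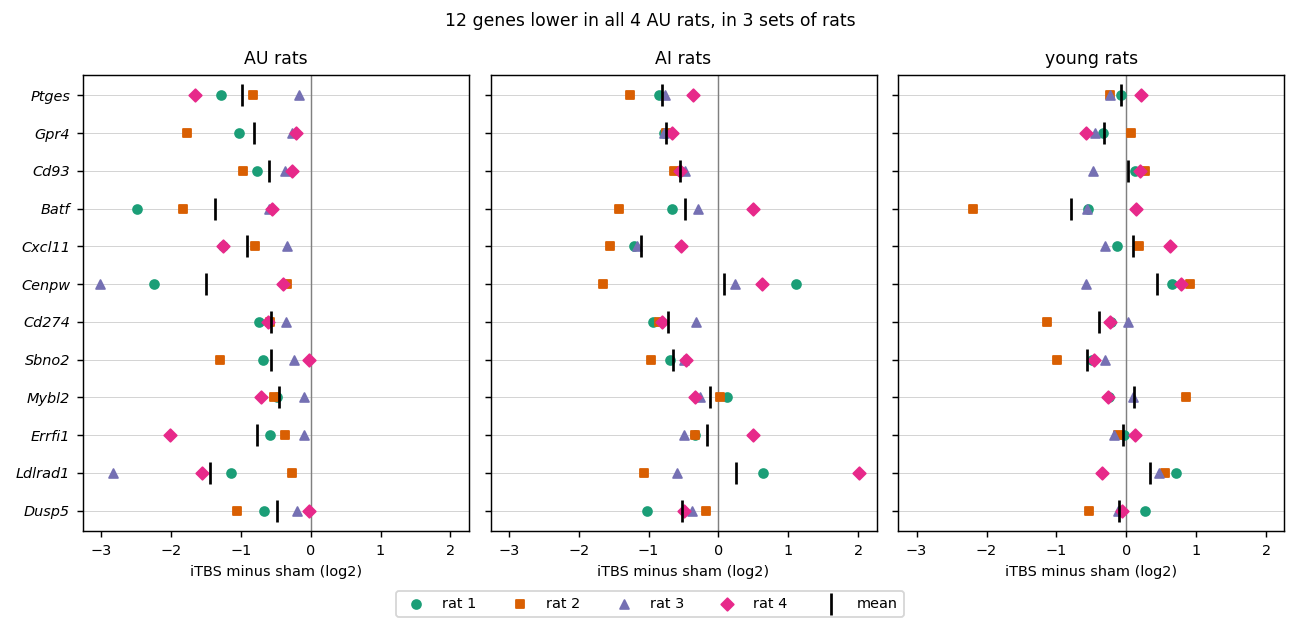
Change of 12 genes that were lower in all 4 AU rats (iTBS minus sham, log2) in the AU rats that chose them, in AI rats and in young rats. Points are rats and black bars are means. In the AI panel all 4 points of Gpr4, Cd93, Cxcl11, Cd274, Sbno2, Ptges and Dusp5 lie left of 0.

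Among the 12 genes with the smallest p of those higher in all 4 rats, many large estimates came from single dim spots. For 6 of the 12 the only spot lay in a dim patch on 1 array. Snx4, a sorting nexin of endosomes, was at -1.86, -2.03, -6.41 and -2.01 in sham and -1.37, -1.62, -1.89 and -1.76 in iTBS, and its estimate was 1.42 with AU sham 3 and 0.38 (unadjusted p = 0.0215) without that spot. Mtf1, the metal-responsive transcription factor, was at -10.18 on AU sham 3 and between -4.50 and -3.47 on the other sham arrays, an estimate of 1.73 with the spot and 0.44 without. Manbal went from 1.06 to 0.30, Cap1, which recycles actin, from 1.18 to 0.55, Nelfa, a subunit of the elongation factor that pauses RNA polymerase, from 0.43 to 0.27 and Ccng2, a cyclin of arrested cells, from 0.40 to 0.26, and none of these 4 was at an unadjusted p under 0.05 without its dim spot. Xxylt1, a glycosyltransferase that acts on Notch, had a single low value, -7.39 on AU sham 3, in a spot that the rule did not count. Aldh3b1, an aldehyde dehydrogenase, was at -2.76 on AU sham 4 and at -0.18 on the repeat of the same RNA, so that its estimate of 1.02 holds a value that the repeat did not give.

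The remaining 4 genes of this set had no spot in a patch. Suv39h2, a methyltransferase for lysine 9 of histone H3, was at -6.02, -7.27, -5.07 and -6.33 in sham and -5.74, -5.58, -4.72 and -5.59 in iTBS. It was higher in each rat, mostly in rat 2, with an estimate of 0.76 (standard error 0.19, unadjusted p = 0.000677). Fam135a was at -2.79, -2.73, -2.71 and -2.64 in sham and -2.33, -2.47, -2.21 and -2.53 in iTBS, groups that did not overlap, as in 41 of 12559 genes in this direction (0.326%), with an estimate of 0.33 (standard error 0.10). Slc2a9, a urate transporter (0.40, standard error 0.13), and the protocadherin Pcdhb6 (0.37, standard error 0.10) were higher in each rat too. In AI rats Suv39h2, Fam135a, Slc2a9 and Pcdhb6 had estimates between -0.09 and 0.03.

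Dim spots also carried the largest values of several marker and synaptic genes. Gria1, the GluA1 subunit of AMPA receptors that long-term potentiation brings to the synapse, was at 0.62, 0.32, 0.80 and -4.18 in sham and 1.15, 0.96, 0.74 and 1.18 in iTBS. On AU sham 4 its spot had 82.1% dim neighbors, and the Gria1 estimate was 1.62 (unadjusted p = 0.00995) with it and 0.39 (unadjusted p = 0.0589) without. Camk2a, the kinase subunit central to potentiation, was at -4.42 on AU sham 3 and at -0.47, -1.47 and 0.15 on the others, with estimates of 1.19 and 0.08. Wfs1, a marker of CA1 pyramidal cells, went from 1.82 to 0.53, and Tubb3, neuronal tubulin, from -0.67 to -0.08. The endothelial marker Emcn went from 1.44 to 0.28, the astrocyte marker Mlc1 from 0.94 to 0.23 and the cilium gene Cfap126 from 1.41 to 0.31.

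**Figure D4:**
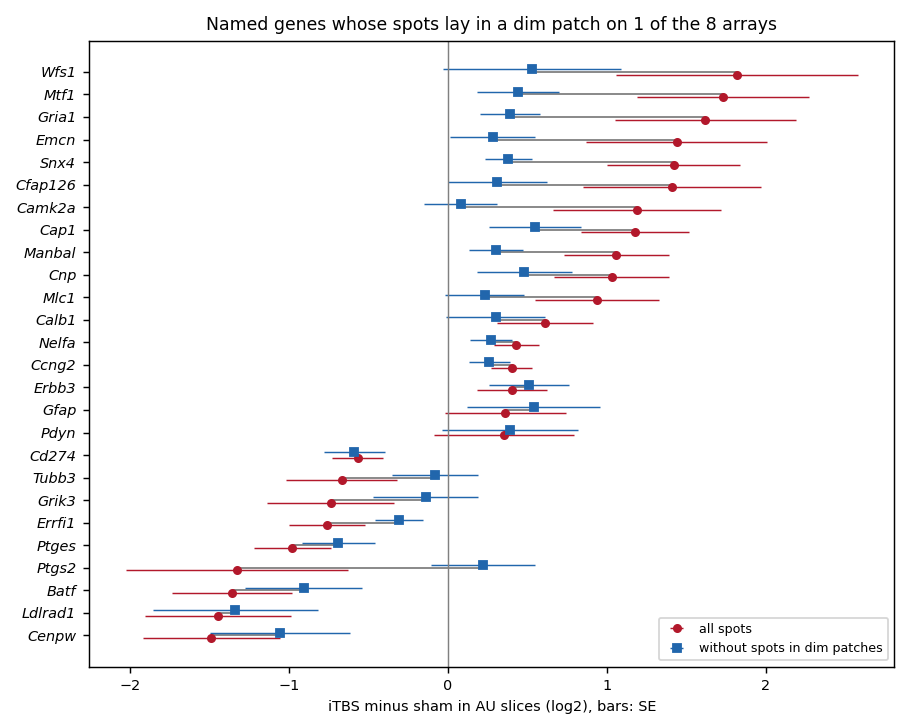
Change in AU slices (iTBS minus sham, log2, with standard errors) of named genes whose spots lay in a dim patch on 1 of the 8 arrays, with all spots (circles) and without the spots in patches (squares). Gria1 moves from 1.62 to 0.39 and Ptgs2 from -1.33 to 0.22.

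Myelin genes were higher in iTBS slices of rat 1. All 25 on the array were measurable and 0 passed the adjusted threshold. Of the 25 estimates 23 were above 0, where 6818 of 12648 tested genes were, and the median was 0.26. By rat the median was 0.68, 0.09, 0.02 and 0.13, and without rat 1 it was 0.12. In all 4 rats 9 of the 25 were higher and 0 lower, where 5.97% and 5.34% of all genes were. At an unadjusted p under 0.05, 2 of the 25 were higher with all spots, where 2.74% of all genes were, and 0 without the spots in patches, where 1.53% were. These were Cnp, the myelin phosphodiesterase, and Enpp2, or autotaxin. Cnp was at -0.94, -0.44, -2.80 and -0.79 in sham and 0.53, -0.18, -0.36 and -0.85 in iTBS, and 41.4% of the bright neighbors of its AU sham 3 spot were dim, so that the estimate was 1.03 (standard error 0.36) with the spot and 0.48 (unadjusted p = 0.124) without. Mog, at the myelin surface, was higher in each rat, by 0.38, 0.32, 0.18 and 0.25 (0.28, standard error 0.23). Ugt8, which makes galactocerebroside (0.34, standard error 0.23), and Mal, a raft protein (0.41, standard error 0.25), were higher in each rat as well, whereas Mbp (-0.06, standard error 0.16) and Mobp (0.10, standard error 0.37), both myelin proteins, were not.

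In rat 1, where the myelin shift was largest, ependymal and cilium genes had a median change of 1.36, MHC class II genes of 0.45 and choroid plexus markers of 0.32. Their part in the myelin values was not tested. Tmem212, an ependymal marker, changed sign between rats, by 2.39, 1.11, -3.59 and -5.73, and so did Folr1, the folate receptor of the choroid plexus, by 1.79, 1.06, -1.81 and -1.12. In iTBS Tmem212 was very dim in rats 3 and 4, at -9.61 and -10.26. Tmem212 was well above background on 2 iTBS arrays and Folr1 on 3, so both entered the test only through the 4 sham arrays. Ttr, the transthyretin of the choroid plexus (0.08, standard error 0.63), and Otx2, its homeobox factor (-0.12, standard error 0.47), had estimates near 0 with wide errors. Igf2, made in meninges and choroid plexus, had 1 of its 2 spots in a patch on AU sham 4 and on AU iTBS 1, and its estimate was 0.04 with them and -0.10 without.

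Dentate granule cell markers, the genes of the cells that receive the perforant path, had a median of 0.38 over 9 measurable members, and 0.30 without the spots in patches. By rat the median was 0.30, 0.61, 0.36 and 0.02, 4 of the 9 were higher in all 4 rats, where 5.97% of all genes were, and 0 passed an unadjusted p of 0.05, where 4.32% did. C1ql2, a synaptic organizer of mossy fibers, was at -0.50, -0.81, -0.37 and 0.29 in sham and 0.95, 0.27, -0.15 and 0.49 in iTBS, an estimate of 0.74 (standard error 0.48). Plk5, a kinase of granule cells (0.73, standard error 0.58), was higher in each rat, while Prox1, the factor that fixes granule cell identity, was at 0.13 (standard error 0.10). Calb1, a calcium buffer of these cells, went from 0.61 to 0.30 without the spots in patches.

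Neuronal lists followed the rat. The 13 pan-neuronal markers had a median of 0.00, with -0.08, 0.63, -0.48 and 0.04 by rat and 5, 12, 2 and 10 members above sham. Genes of synaptic vesicles and release (23 genes, median -0.10) had -0.06, 0.31, -0.53 and -0.04, and voltage-gated channels (36 genes, median 0.01) had -0.19, 0.38, -0.22 and 0.03. In each of these lists rat 2 was high and rat 3 low. Ionotropic glutamate receptors had a median of 0.06 over 17 genes, metabotropic receptors and transporters 0.04 over 14, and GABA genes -0.02 over 22. Grin1, the obligatory NMDA receptor subunit, was at 2.18, 1.95, 1.63 and 1.85 in sham and 2.43, 1.94, 1.36 and 1.77 in iTBS (estimate -0.03, standard error 0.15). Gad1, which makes GABA, was at 0.24, 0.37, 1.06 and 0.29 in sham and 0.32, 1.15, 0.69 and 0.46 in iTBS (estimate 0.16, standard error 0.24). Neither gene differed beyond its spread, and the 3 lists held 1 gene that passed an unadjusted p of 0.05, Gria1 with its dim spot, where 4.32% of all genes did.

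Secreted factors of activity and trophic support had a median of 0.04 over 17 genes, and 0 of them passed an unadjusted p of 0.05. Bdnf, the neurotrophin of late potentiation, was at -3.69, -3.52, -3.25 and -3.19 in sham and -2.95, -2.57, -3.37 and -3.54 in iTBS. It had changes of 0.74, 0.95, -0.13 and -0.34, higher in rats 1 and 2 and lower in rats 3 and 4, with an estimate of 0.30 (standard error 0.27). Rats 1 and 2 were also the rats with the most negative changes of Il6, Il1b, Cxcl1 and Ccl2. Ntf3 (0.41, standard error 0.34), another neurotrophin, and the opioid precursor Pdyn (0.35, standard error 0.44) did not pass either. Subunits of NADH dehydrogenase had a median of -0.06 over 34 genes and those of ATP synthase -0.04 over 16.

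The remaining lists held few values apart from the rest. Astrocyte markers had a median of -0.15 over 15 genes, with Aldoc, the glial aldolase, at -0.23 (standard error 0.11, unadjusted p = 0.0484) and Gfap, the astrocyte filament, at 0.36 (standard error 0.38). Endothelial and mural markers had a median of -0.12 over 18 genes, and -0.15 without the spots in patches. Class II genes had a median of 0.14 over 8, where RT1-Da, an alpha chain, was at 0.76 (standard error 1.21) and the invariant chain Cd74 at 0.53 (standard error 1.10). Of 22 claudins 12 were measurable, with a median of 0.08. Cldn15, a pore-forming claudin, was higher in each rat (0.22, standard error 0.09, unadjusted p = 0.0222), Cldn14 was at 0.30 (standard error 0.52), and Cldn16 and the chemokine Cxcl13 were too dim to test.

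**Figure D5:**
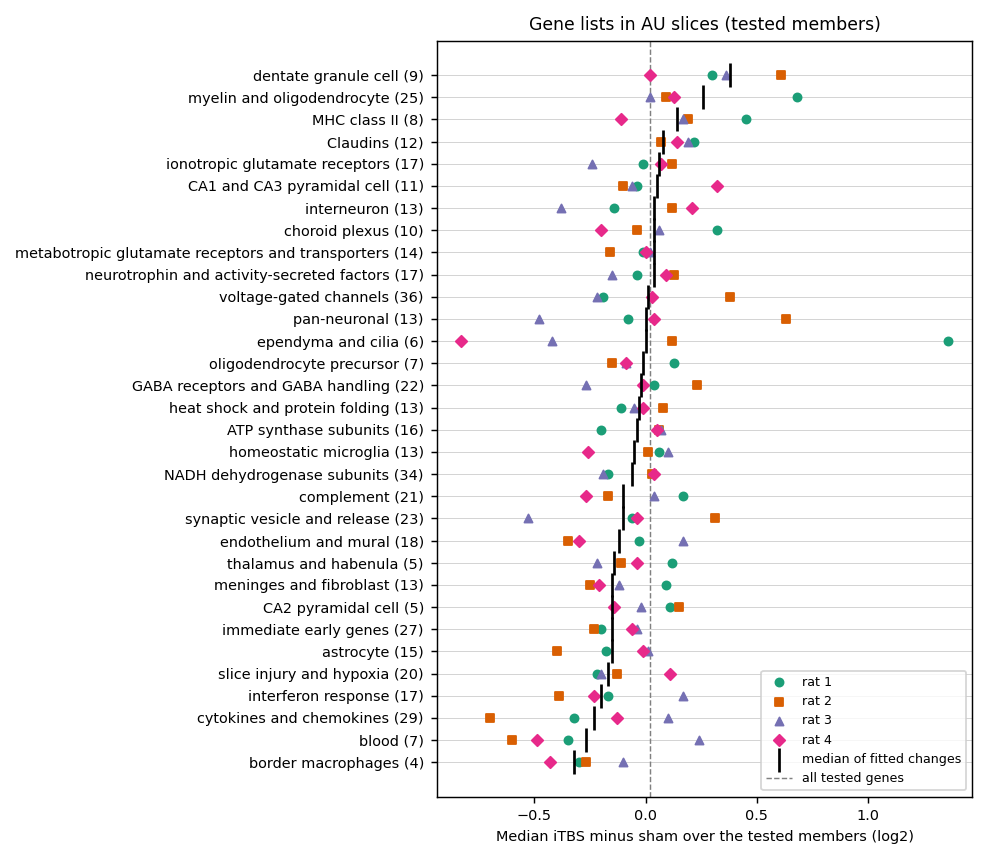
Median change of the measurable members of each gene list (iTBS minus sham, log2) in each AU rat (points) and of the fitted changes (black bars); the dashed line is the median of all tested genes, 0.02. Lists of neuronal genes place rat 2 to the right and rat 3 to the left, and cytokines place rat 2 at -0.70 and rat 3 at 0.10.

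The difference between the AU response and those of young and AI rats was tested in the same fit, where 0 of 30651 probes passed the adjusted threshold in limma in either contrast (0%). An unadjusted p under 0.05 was found for 1721 probes for AU against young (5.61%) and 722 for AU against AI (2.36%). The smallest p-values for AU against young were those of Fam222a (difference -1.29), the collagen gene Col1a1 (-1.83) and Lsamp, a neuronal adhesion molecule (-0.65), each with an adjusted p of 0.76. For AU against AI they were those of Mpc1l (-0.81), the transcription factor Snai2 (-1.57) and Hbs1l, which acts in ribosome rescue (0.70), each with an adjusted p of 1.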

How the data were processed

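RNA of each rat's slices was hybridized to 1-color Agilent rat arrays, and the authors deposited the output of Agilent Feature Extraction 12.0.3.1, with 62976 features per array, of which 58717 are not controls. The deposited values used here are the processed signal, an intensity from which the scanner software had subtracted background, and a table of z-scores, a score the authors made by centering the log intensities of an array and dividing by their SD. Recomputed z-scores differed from the deposited ones by at most 0.005.

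Each intensity was put on the log2 scale relative to the 75th percentile of its array, outlier spots were dropped and spots of a probe averaged. Symbols came from RefSeq by unversioned accession for 21109 of 45598 probes (16581 genes), 6958 probes with Ensembl transcripts stayed unnamed, and a gene was read from its brightest probe. A probe was tested if well above background on all 4 AU sham or all 4 AU iTBS arrays. limma 3.58.1 (R 4.3.3) fitted 36 primary arrays with the rat as a block and 6 treatment effects. These were 1 Hz and iTBS, each in AU, AI and young rats. The fit had 18 residual degrees of freedom and Benjamini-Hochberg adjustment over 30651 probes at 0.05. All p-values in the text are two-sided limma values, from this fit unless another setting is named, such as a rat or the spots in patches left out. With 4 rats an exact sign-flip test cannot go below 0.125. The number of arrays limits the precision. The fit was also run on simulated data with normal errors.

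The numbers pair the arrays because dishes with the same number came from the same rat. Same-rat AU sham and iTBS arrays deviated together, with correlations of 0.404, 0.631, 0.223 and 0.506, and over all groups the correlation was under 0.1 only in AI rat 2, at -0.0264 and 0.0463. Rats 1 to 3 had both AU arrays on 1 slide, and in rat 4 the slide differed.

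Named genes were the 12 with the smallest p among those higher, and the 12 among those lower, in 4 of 4 rats, the extreme members of each gene list, a preset group of genes from activity, myelin, barrier and cell type markers, and 3 genes for each difference between ages. Genes outside the rule are named where a count or a pair of members called for it, and were chosen after their values were seen. Some genes that the rule names are not reported here. The members and lists were chosen with earlier results of these data known. Alternatives were z-scores, normexp with an offset of 50, other filters, other blocks, other sets of arrays, each rat left out, the repeat array and, added after the data were seen, spots in dim patches left out. The background correction used the median signal of the spots. Figures were drawn with matplotlib 3.10.9 in Python 3.11.15.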

Additional observations from a re-analysis of the deposited data

Results flagged for a closer look

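In groups of 4, the highest or lowest value was set apart from the others by more than Dixon's critical value of 0.829 in 29 of 287 groups checked. Chance gives about 5% for independent groups chosen without regard to their values. Many genes here were named for their values, and the change of a gene is built from its levels. The count is therefore not set against chance.

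Several of these values came from spots in dim patches. Ptgs2 stood at -9.59 on AU iTBS 3, a change of -5.98 in that rat. Gria1 stood at -4.18 on AU sham 4, a change of 5.36. On AU sham 3 the low levels were those of Enpp2 (-2.73), Cap1 (-4.62), Snx4 (-6.41, a change of 4.52), Manbal (-3.75, a change of 3.34) and Mtf1 (-10.18). Camk2a changed by 4.31 and Tubb3 by -2.46 in rat 3. Mlc1 was at -3.29 on AU sham 4, and Igf2 at -3.58 on AU iTBS 1.

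Other values lay outside such patches. Aldh3b1 was at -2.76 on AU sham 4, a change of 2.43, and the repeat of that array gave -0.18. On AU sham 3 Arc was at -0.35, Gad1 at 1.06 and Tmem212 at -6.01. On AU sham 4 Egr1 was at 1.86, Gadd45b at -0.20 and Fosl1 at -4.96. On AU iTBS 3 Il6 was at -5.12 and Suv39h2 at -4.72, and on AU iTBS 1 Ntf3 was at -3.22. Among list medians, rat 1 stood apart in myelin genes (0.68) and ATP synthase subunits (-0.20), and rat 4 in CA1 and CA3 markers (0.32).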

How the results depend on the processing

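No alternative limma setting gave a probe at an adjusted p of 0.05 in AU slices, and the methods' criteria kept 3 probes. Leaving out each rat in turn gave 1273 to 1503 of the probes at an unadjusted p under 0.05. The 1319 probes at an unadjusted p under 0.05 became 652 with no replicate block, that is without the pairing by rat, 860 with the 12 AU arrays alone, 746 without the spots in dim patches and 727 without them and with the repeat in place of AU sham 4. For the difference between AU and young the 1721 probes became 3206 with no filter and 471 with no replicate block, and for AU against AI the 722 became 156 with no replicate block and 1652 with the slide as a further block, in which the AU change rests on rats 1 to 3. With that block the AI change rests mainly on AI rats 3 and 4, whose sham and iTBS arrays share a slide. The cause of these shifts was not tested.

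The median of border macrophage markers was -0.14 with normexp. That of CA2 markers was -0.01 with deposited z-scores, 0.00 with normexp and 0.03 with the slide block, and -0.13 to 0.03 with a rat left out. With a rat left out the median of thalamus markers ran from -0.26 to 0.01 and that of claudins from -0.02 to 0.17. The other list medians moved by less than the spread between rats.

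Of 85 named genes 70 kept their sign in all settings that held them. These were 19 for most genes and 18 for those that the stricter filter on dim probes left out. The slide block turned Arc (-0.10), Dusp6 (-0.10), Mobp (-0.00), Grin1 (0.02), Igf2 (-0.47), Ttr (-0.45), Folr1 (0.32) and Tmem212 (0.08). Normexp turned Arc (-0.06), Mbp (0.06), Igf2 (-0.14), Folr1 (0.32) and Tmem212 (0.01). z-scores turned Arc (-0.00) and Folr1 (0.15, deposited 0.16). The repeat in place of AU sham 4 turned Mbp (0.04), Grin1 (0.01), Igf2 (-0.58) and Otx2 (0.11), with Mbp 0.04, Grin1 0.01, Igf2 -0.08, Otx2 0.11 and Ptgs2 0.15 when patches were left out too. Without patches alone Ptgs2 was 0.22 and Igf2 -0.10. Igf2 was -0.27 with the repeat averaged in and -0.36 over all its probes. Leaving out 1 rat turned Arc, Egr1, Dusp6, Crh, Ptgs2, Mbp, Grin1, Gad1, Igf2, Ttr, Folr1 and Cldn14: Arc from -0.05 to 0.08, Egr1 from -0.20 to 0.09, Dusp6 from -0.01 to 0.26, Crh from -0.36 to 0.02, Ptgs2 from -1.99 to 0.22, Mbp from -0.18 to 0.04, Grin1 from -0.12 to 0.05, Gad1 from -0.04 to 0.34, Igf2 from -0.73 to 0.75, Ttr from -0.19 to 0.28, Folr1 from -0.62 to 0.57 and Cldn14 from -0.02 to 0.58.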

Other observations

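Fosl1, an AP-1 subunit of the Fos family, was named after its values were seen. It stood at -2.96, -2.76, -2.70 and -4.96 in AU sham and at -5.27, -5.66, -3.27 and -4.35 in AU iTBS. Its changes were -2.31, -2.90, -0.56 and 0.61, lower in rats 1 to 3 and higher in rat 4, with an estimate of -1.29 (standard error 0.35, unadjusted p = 0.00153). In AI rats Fosl1 had changes of -1.30, -1.60, -1.03 and -0.97, and in young rats of -1.37, -1.66, -1.14 and -0.97. Fos itself, in the same slices, had an estimate of -0.15.

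A contrast added after the data were seen, the mean of the AU and AI changes, gave 0 probes at an adjusted p of 0.05 in limma and 665 at an unadjusted p under 0.05. The smallest adjusted p was 0.12, shared by Cd274 (-0.65), Cxcl11 (-1.01), Cd93 (-0.57) and Gpr4 (-0.78), and over 17 settings the smallest adjusted p ran from 0.0112 to 1. Ptges (-0.90), Hspa1a (-0.74), Sbno2 (-0.61), Fosl1 (-1.26) and Timp1 (-0.55) followed. The next were Trpv4, a channel opened by swelling and warmth (-0.61), Tubb6, a tubulin (-0.74), and Csf3, the growth factor of granulocytes (-1.05), each named after its values were seen. This ranking uses the AU values that chose several of these genes, and Ptges entered the test only through the AU sham arrays.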
